A study of Mus musculus with 4 samples.

Results

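The genes described are 9 neuroectoderm and neural markers, Sox1, Pax6, Nes, Tubb3, Map2, Neurog2, Hes5, Sox11 and Zic1, read in mouse embryonic stem cells that had not been directed to differentiate. They were chosen by name, as genes that mark the neural lineage, and not by their values, although earlier results of these data were known. All 9 were found among the 54838 gene identifiers of the count tables, matched by Ensembl identifier to GENCODE M21 on GRCm38. RNA sequencing was done on unmodified E14 cells (the E14Tg2a.4 subline, of strain 129/Ola), called wild-type here, and on the p300 knock-in line MLC460. In MLC460, CRISPR/Cas9 editing of the same E14 cells placed mEGFP, a monomeric form of enhanced green fluorescent protein, at the N-terminus of p300 made from its own locus. Both groups were grown in serum with leukemia inhibitory factor (LIF) on gelatin, and each had 2 libraries, described by the submitters as biological replicates. The labels give neither the number of clones behind the line nor whether 1 or both alleles carry the tag, and nothing in them says that the replicates were separate cultures. The p-values therefore measure the spread between these libraries, and a difference between the lines cannot be told apart from one that arose when the single knock-in line was derived.

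Neural fate arises in the epiblast when signals that maintain pluripotency or induce mesoderm are withdrawn. Sox1 is among the earliest genes specific to the neural plate, Pax6 and Zic1 follow as regional regulators, Nes marks dividing progenitors, Hes5 reports Notch signalling, Neurog2 drives neurogenesis, and Sox11, Tubb3 and Map2 accompany neuronal differentiation. In embryonic stem cells held in serum and LIF these genes are commonly used as a readout of spontaneous differentiation. p300 is a histone acetyltransferase and transcriptional coactivator that is found at active enhancers, and many developmental genes, including neural ones, depend on such enhancers when they are switched on.

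The sequence immediately upstream of 4 markers is shown because these genes span the range of levels described next: Tubb3 and Nes had the highest levels per kilobase of the 9, Pax6 a low one and Zic1 almost none. Each run ends before the start of the gene in both GENCODE and RefSeq and is read 5′ to 3′ on the gene's own strand, from RefSeq promoter windows on GRCm38.p6, with every CpG in capitals. The runs come from chr8:123411303-123411423 (plus strand) for Tubb3, chr3:87970843-87971077 (plus strand) for Nes, chr2:105668646-105668895 (plus strand) for Pax6 and chr9:91365811-91366018 (minus strand) for Zic1.
Tubb3: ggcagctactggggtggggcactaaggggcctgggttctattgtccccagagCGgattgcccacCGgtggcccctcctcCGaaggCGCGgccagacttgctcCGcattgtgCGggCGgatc
Nes: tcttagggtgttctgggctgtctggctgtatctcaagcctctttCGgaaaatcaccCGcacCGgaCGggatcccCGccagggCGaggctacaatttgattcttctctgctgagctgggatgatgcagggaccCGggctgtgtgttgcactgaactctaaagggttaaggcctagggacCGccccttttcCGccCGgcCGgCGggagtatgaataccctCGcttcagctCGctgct
Pax6: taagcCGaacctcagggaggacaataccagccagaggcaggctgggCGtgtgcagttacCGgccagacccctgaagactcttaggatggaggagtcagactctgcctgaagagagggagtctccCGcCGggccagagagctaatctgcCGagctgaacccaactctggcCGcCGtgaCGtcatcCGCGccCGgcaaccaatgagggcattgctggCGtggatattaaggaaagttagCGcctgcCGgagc
Zic1: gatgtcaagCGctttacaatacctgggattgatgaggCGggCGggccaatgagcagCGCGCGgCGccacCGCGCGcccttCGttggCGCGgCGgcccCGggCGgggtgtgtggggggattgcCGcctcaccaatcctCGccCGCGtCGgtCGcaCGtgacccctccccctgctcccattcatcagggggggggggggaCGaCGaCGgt
These runs hold 8, 14, 15 and 26 CpG in the order printed. Their lengths differ (121, 235, 250 and 208 bases), so these counts do not compare the genes.

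All 9 markers had at least 1 RefSeq window of 300 bases, 250 before and 50 after the transcript start, and Pax6 had 2. In the windows, CpG counts ranged from 10 for Neurog2 to 41 for Hes5, against a median of 7 over 32851 windows of the same length. Among the 3 genes with the fewest reads, Hes5 had more CpG than 96.5% of windows and Zic1 (31 CpG) more than 89.4%, whereas Neurog2, with the fewest CpG of the 9 genes, exceeded 56.5%. Tubb3, the marker with the highest level, had 26 CpG and exceeded 83.1%. Nes and the upstream Pax6 window (18 CpG each) exceeded 70.3%, and the other Pax6 window (16 CpG) exceeded 67.0%. The octamer ATGCAAAT, the motif bound by POU factors such as OCT4, was searched on both strands. It lay in the window of Sox1 alone among the 9 genes and in 1.74% of all windows. The string TTCAGCACC, a part of the RE1 element bound by the neural repressor REST, was also searched on both strands. It occurred in 0.371% of all windows and in none of the 10 windows of these genes, which says only that these letters are not there. The libraries measure RNA, so no binding or methylation at these sequences was measured.

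Gene-assigned counts ranged from 18946731 to 26553998 per library, and 3 counts, the limit that a count of 0 allows, correspond to 0.113 to 0.158 CPM (counts scaled to a fixed library total). Levels are given as CPM after TMM scaling, a correction of library size. CPM per kilobase of exon (the union of a gene's exons) is used to compare genes. The cells carried the stem cell label's markers: the summed CPM of 9 embryonic stem cell genes, among them Pou5f1, Nanog and Sox2, was 6124 to 6702 per library. The 9 neural genes summed to 159 to 243 CPM, of which Tubb3 alone gave 117 to 205. Summed marker CPM was 11.9 to 15.4 for mesoderm, 7.92 to 9.73 for endoderm, 54.9 to 70.0 for trophoblast, 67.8 to 131 for neural crest and 22.2 to 39.2 for fibroblasts. A sum can rest on few of its genes, as the neural one does on Tubb3, so it does not show that cells of that type were present. Afp (endoderm), Pax3 (neural crest) and Lum (fibroblast) had 0 counts in every library. The fibroblast sum was 36.0 and 39.2 CPM in the wild-type libraries against 22.2 and 23.9 CPM in the knock-in libraries, and the part of such cells in the results was not tested. Over 15181 genes, the log2 deviation of the wild-type 2 library from the other 3 rose with transcript GC content. Spearman's rho was 0.67 across genes, which are not independent replicates, and it was computed for wild-type 2 alone. Differences were therefore also fitted with a correction for GC content, and values without each library are given beside those with all.

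Among the cytoskeletal markers, Tubb3 was abundant, Nes was present at a moderate level and Map2 was low. Tubb3 (ENSMUSG00000062380, chromosome 8, 123411424 to 123422015), the beta-tubulin class III isoform used as a marker of young neurons, had 3227 and 4504 counts in the wild-type libraries 1 and 2, and 3249 and 2280 in the knock-in libraries 1 and 2. Scaled, these were 117, 205, 133 and 122 CPM, so that wild-type 2 stood above the other 3, which lay close together. The mean was 161 ± 61.7 CPM in the wild-type and 128 ± 8.02 in the knock-in pair (SD, n = 2 each), and the groups overlapped.

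Nes (ENSMUSG00000004891, chromosome 3, 87971078 to 87980451) encodes nestin, an intermediate filament of neural progenitors. It had 26.0 and 24.5 CPM in the 2 wild-type libraries, and 20.8 and 20.9 CPM in the 2 knock-in libraries. Both knock-in libraries lay below both wild-type libraries. The means were 25.2 ± 1.08 and 20.8 ± 0.0438 CPM (SD, n = 2 each). Map2 (ENSMUSG00000015222, chromosome 1, 66175273 to 66442583), a microtubule-associated protein of dendrites, had 102 and 36 counts in the wild-type libraries and 72 and 69 in the knock-in libraries. These are 3.70 and 1.63 CPM in the 2 wild-type libraries, and 2.96 and 3.69 CPM in the 2 knock-in libraries, so wild-type 2 held the lowest value and wild-type 1 the highest. The means were 2.67 ± 1.46 and 3.33 ± 0.522 CPM. The exact 95% binomial intervals of the 2 wild-type libraries, 3.13 to 4.66 and 1.16 to 2.29 CPM of unscaled library size, did not overlap, and such intervals cover counting error only.

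The 3 transcription factors with enough reads to test were all low. Sox1 (ENSMUSG00000096014, chromosome 8, 12395295 to 12400126), a SoxB1 factor of the neural plate, had 84 and 86 counts in the wild-type libraries and 94 and 70 in the knock-in libraries. The levels were 3.05 and 3.90 CPM in the wild-type libraries and 3.86 and 3.75 CPM in the knock-in libraries, with both knock-in values between the wild-type ones. The means were 3.48 ± 0.604 and 3.80 ± 0.0792 CPM. Pax6 (ENSMUSG00000027168, chromosome 2, 105668900 to 105697364), a paired-box regulator of forebrain and eye, had 2.29 and 1.95 CPM in wild-type cells. The knock-in libraries had 3.74 and 2.09 CPM, from 91 and 39 counts. Knock-in 1 was thus the highest library for Pax6, while knock-in 2 lay between the wild-type values, and the means were 2.12 ± 0.237 and 2.91 ± 1.17 CPM. Sox11 (ENSMUSG00000063632, chromosome 12, 27334264 to 27342574), a SoxC factor of neuronal precursors, had 6.25 and 6.81 CPM in the 2 wild-type libraries, and 7.72 and 7.71 CPM in the 2 knock-in libraries. Both knock-in libraries lay above both wild-type libraries, with means of 6.53 ± 0.398 and 7.71 ± 0.0071 CPM.

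The remaining 3 genes, which act in or after the choice of neural fate, had almost no reads and did not pass the low-count filter. Neurog2 (ENSMUSG00000027967, chromosome 3, 127633135 to 127635631), a proneural basic helix-loop-helix (bHLH) factor, had 5 counts in wild-type 1 and 0 in the other libraries. In unscaled CPM the 5 counts are 0.188, with an exact 95% binomial interval of 0.0611 to 0.439. Zic1 (ENSMUSG00000032368, chromosome 9, 91358058 to 91365810), a zinc-finger factor of the dorsal neural tube, had 1 and 4 counts in wild-type 1 and 2 and 0 in both knock-in libraries. All reads of Neurog2 came from 1 library, and 4 of the 5 reads of Zic1 from another, so no fold is given for either gene. Hes5 (ENSMUSG00000048001, chromosome 4, 154960923 to 154962371), a bHLH repressor induced by Notch, had 1 count in knock-in 1 and 0 elsewhere, which is under the limit in both groups. When all genes with at least 1 count were fitted, the edgeR adjusted p was 0.781 for Neurog2, 0.767 for Zic1 and 0.845 for Hes5. A difference between the lines was not detectable for these genes at this depth. In bulk RNA, fewer cells of a type and less RNA per cell cannot be told apart, and that holds for each level given here.

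**Figure D1:**
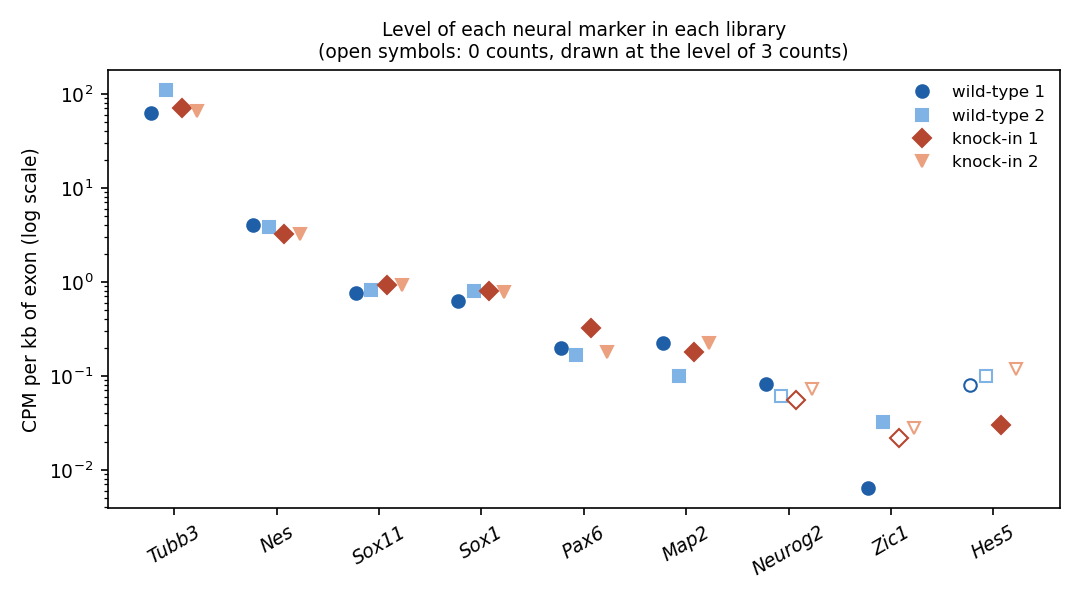
Level of each marker in CPM per kilobase of exon (log axis) in the 4 libraries, with 1 symbol per library and open symbols for 0 counts, drawn at the level that 3 counts would give. Tubb3 spans 62.7 to 109, Nes 3.24 to 4.05 and Sox11 and Sox1 0.631 to 0.929, while Pax6 and Map2 lie between 0.0994 and 0.320 and the filled symbols of Neurog2, Zic1 and Hes5 rest on 1 to 5 counts.

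Ordered by mean CPM per kilobase, Tubb3 (77.2) came first and was 21.5 times Nes (3.59), which was in turn 4.19 times Sox11 (0.857). Sox11 and Sox1 (0.753) had overlapping ranges over the libraries, although Sox11 was the higher in 4 of 4. Sox1 was 3.50 times Pax6 (0.215). Pax6 and Map2 (0.182) did not separate, with Pax6 the higher in 2 of 4 libraries, and Neurog2, Zic1 and Hes5 overlapped at the end. Dividing by the longest transcript in place of all exons raised Pax6 to 0.568 and Map2 to 0.479 and left the order of the 9 unchanged. Among 21998 protein-coding genes, Tubb3 lay above 97.3%, Nes above 65.8%, Sox11 above 51.4%, Sox1 above 50.5%, Pax6 above 42.3% and Map2 above 41.3%. The low standing of Neurog2 (29.1%), Zic1 (25.9%) and Hes5 (24.9%) rests on 5, 5 and 1 counts over all libraries.

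Overlapping genes touch some of these values, because the counts do not use strand. Hes5 shares 433 exon bases, 31.8% of its exons, with the antisense gene Gm20421, and reads there were not assigned to either gene. With each strand counted separately, the sums for Hes5 were 1 and 0 in the wild-type libraries, and 3 and 4 in the knock-in libraries. Map2 shares 124 exon bases with the antisense gene Gm10558 and gained 12, 3, 5 and 12 reads in wild-type 1, wild-type 2, knock-in 1 and knock-in 2. Zic1 shares 60 bases with Zic4 on the other strand and gained no read. The libraries are not stranded, so the reads gained for Hes5 and Map2 may belong to either overlapping gene. Sox1 contains the miRNA gene Gm25239 (86 bases) on its own strand, so counting by strand cannot recover reads shared by the 2 genes.

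The knock-in comparison asks whether tagging p300 was accompanied by a change in these residual transcripts. None of the 6 markers tested rose or fell past the threshold: 0 of 6 had an adjusted p under 0.05 in edgeR's quasi-likelihood test, and 0 had an unadjusted p under 0.05. DESeq2's Wald test, limma-voom and edgeR without the low-count filter also called 0 of them, where they called 0.810%, 0.0263% and 1.31% of all genes. Over all 15191 genes, 0.0658% were called by the same rule and 10.9% had an unadjusted p under 0.05. The fitted differences were positive for Sox1, Pax6, Map2 and Sox11 and negative for Nes and Tubb3, with a median log2 fold change of 0.19 for the 6 and of 0.0010 for all genes tested. The 2 groups did not overlap for 2 of the 6, Nes and Sox11, where 47.4% of all genes tested did not overlap.

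For Nes the log2 fold change, knock-in over wild-type, was -0.28 (SE 0.17, 95% interval -0.66 to 0.11, edgeR adjusted p = 0.536). For Tubb3 it was -0.33 (SE 0.24, interval -0.86 to 0.20, edgeR adjusted p = 0.588). Map2 had a log2 fold change of 0.29 (SE 0.39, interval -0.58 to 1.16, edgeR adjusted p = 0.779). The intervals of Map2 and of Pax6, given below, both reach past a doubling. Map2 had counts of 36 to 102 per library and unequal replicates. Among the transcription factors, Sox1 had a log2 fold change of 0.13 (SE 0.27, interval -0.47 to 0.74, edgeR adjusted p = 0.861). That of Pax6 was 0.47 (SE 0.35, interval -0.32 to 1.25, edgeR adjusted p = 0.607). That of Sox11 was 0.24 (SE 0.22, interval -0.24 to 0.73, edgeR adjusted p = 0.669). All 6 intervals include 0, so these data set limits to a difference and do not show that the lines are equal.

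**Figure D2:**
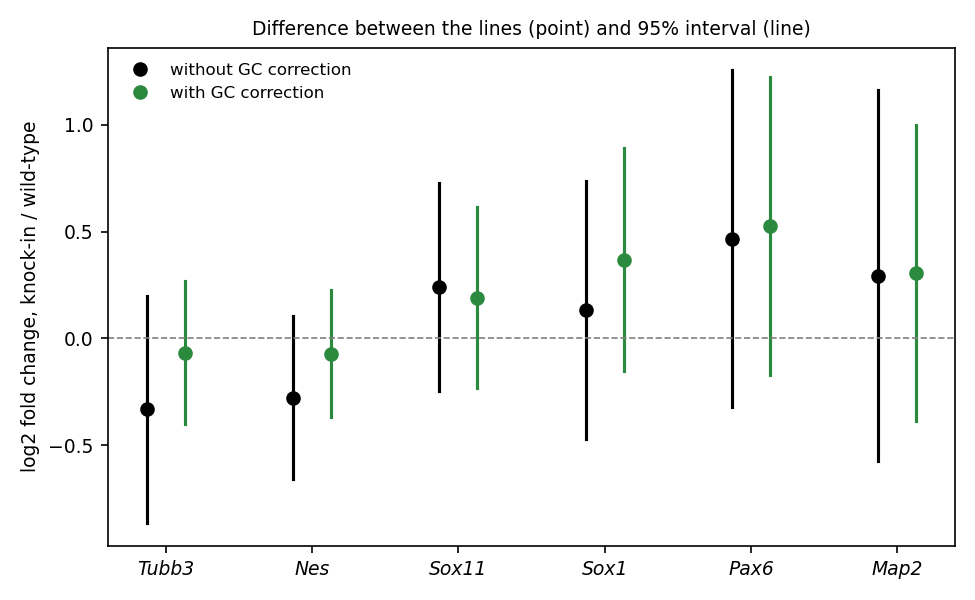
Log2 fold change of the 6 tested markers, knock-in over wild-type, with 95% intervals, from all 4 libraries and again with the GC correction. Every interval crosses 0. With the correction Nes and Tubb3 move close to 0.

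The value for Tubb3 depended on the wild-type libraries. Its log2 fold change became -0.68 when wild-type 1 was left out and passed (edgeR adjusted p = 3.6e-09), and without wild-type 2 it was 0.11 (adjusted p = 0.663). Over the 15 other settings tried its adjusted p ran from 3.6e-09 to 1.0. Map2 moved the opposite way: 1.01 without wild-type 1 (edgeR adjusted p = 0.0263, the lowest of its other settings, which reached 1.0) and -0.18 without wild-type 2. Without wild-type 1, 32.1% of all genes were called, and in that fit wild-type 2 is the only wild-type library. No marker was called in the other 3 fits, in which the share of all genes called was 4.39% with wild-type 2 left out, 0.107% with knock-in 1 left out and 0.0990% with knock-in 2 left out. Nes ranged from -0.33 to -0.23, Sox11 from 0.18 to 0.29, Sox1 from -0.035 to 0.30 and Pax6 from -0.045 to 0.82 in log2 fold change. Nes and Sox11 kept their direction in these 4 fits, which largely follows from their groups not overlapping and is no separate check. Sox1 changed sign with wild-type 1 left out (-0.035) and Pax6 with knock-in 1 left out (-0.045). Counts of a single strand, forward and reverse, gave -0.62 and -0.016 for Nes, 0.44 and -0.25 for Sox1, 0.083 and 0.75 for Pax6 and -0.18 and 0.70 for Map2, while Tubb3 (-0.35 and -0.36) and Sox11 (0.23 and 0.21) moved little. None of these passed.

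**Figure D3:**
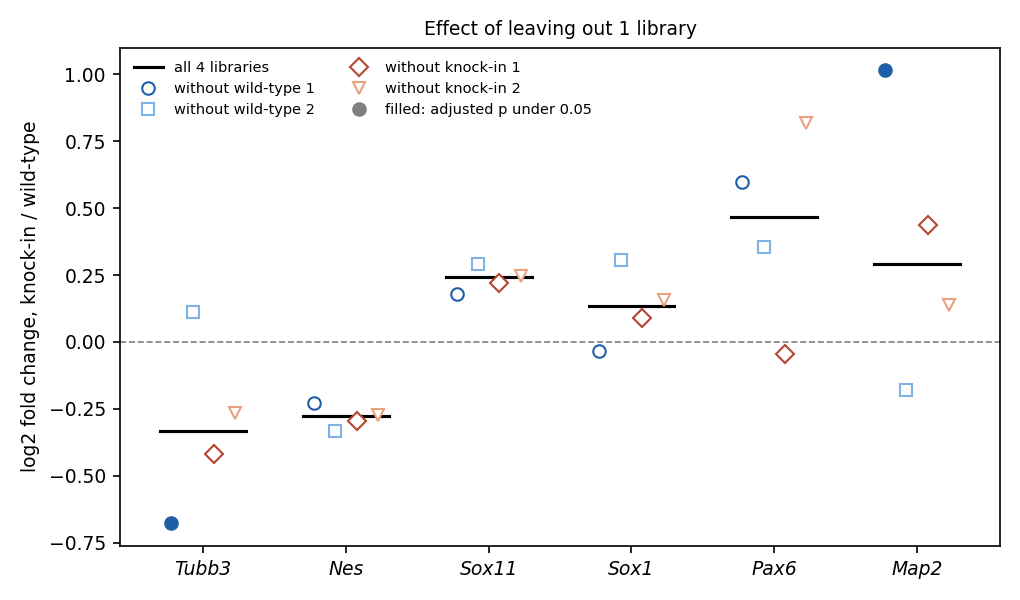
Log2 fold change of each tested marker, knock-in over wild-type, with all libraries (bar) and with each library left out in turn (symbols, filled where the adjusted p is under 0.05). Tubb3 (-0.68 to 0.11) and Map2 (-0.18 to 1.01) spread with the wild-type library that is left out. Nes and Sox11 each stay on 1 side of 0, which largely follows from their groups not overlapping.

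The departure of wild-type 2 from the other libraries was larger for Tubb3, Map2 and Pax6 than the GC trend of that library. Tubb3 transcripts have a GC content of 57.9%, and wild-type 2 lay 0.72 above the mean of the other libraries on the log2 scale (after adding 0.5 CPM), where the trend fitted over all genes, taken as the same difference, was 0.31. Map2 (47.8% GC) had a deviation of -0.88 against a trend of -0.11. Sox1 (0.13 against 0.29), Nes (0.12 against 0.26) and Sox11 (-0.073 against -0.19) lay nearer to the trend, and Pax6 had -0.35 against -0.026. The other 6 beta-tubulins tested were also high in wild-type 2, from 0.32 for Tubb5 to 0.78 for Tubb2a. After correction for GC content, Tubb3 stood at -0.066 in log2 fold change (SE 0.16, edgeR adjusted p = 0.861) and Nes at -0.072 (SE 0.14, adjusted p = 0.826, within a range of 0.194 to 1.0 over its other settings). The value was 0.31 for Map2, 0.37 for Sox1, 0.53 for Pax6 and 0.19 for Sox11. None of the 6 passed with the correction, where 1.18% of all genes did.

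**Figure D4:**
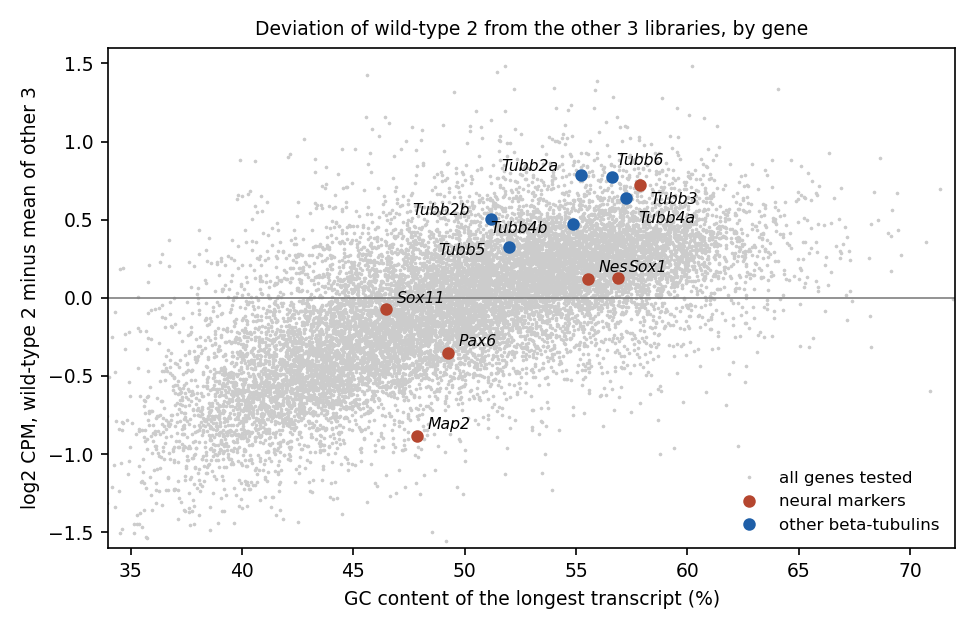
Log2 deviation of wild-type 2 from the mean of the other 3 libraries, plotted against transcript GC content for the genes tested, with the 6 markers and the other beta-tubulins named. Tubb3 and the other beta-tubulins lie above the cloud's trend and Map2 lies below it, and 40 genes fall outside the plotted range.

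Among 142 other genes of 12 neural pathway lists, none was called by edgeR's test on genotype alone with all libraries and the low-count filter. Of these, 94 were tested, 32 with a positive and 62 with a negative log2 fold change (median -0.14). An unadjusted p under 0.05 was seen for 22 of the 94, 4 higher and 18 lower in knock-in cells, where 3.54% of all genes were higher and 7.40% lower by that rule. Of the 94, limma-voom called 0 and DESeq2's Wald test 1 higher (Gbx2) and 3 lower (Notch3, Tubb2a and Meis2), against 0.810% of all genes with DESeq2. Without the low-count filter 132 pathway genes entered, of which 1 was called higher and 7 lower, against 1.31% of all genes. Leaving out wild-type 1 gave 9 higher and 21 lower among 95 pathway genes tested, a share near the 32.1% of all genes. Leaving out wild-type 2 gave 4 higher and 10 lower of 97, against 4.39% of all genes, and leaving out knock-in 1 gave 1 lower (Meis2) of 98, against 0.107%. With the GC correction the median was -0.014, and 3 genes were called higher and 2 lower, where 0.329% of all genes were called higher and 0.856% lower. There were 44 genes with fewer than 10 counts in every library. Of these 44, 10 had 0 counts throughout: Zic4, Neurod4, Pax3, Pax4, Dcx, Stmn4, Emx2, Pou3f2, Nkx2-1 and Nkx2-2.

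The Sox and Zic markers were low beside paralogs that embryonic stem cells express. Sox2, the SoxB1 factor of the pluripotency network, had a mean of 214 CPM per kilobase against 0.753 for Sox1, and Sox3, the remaining SoxB1 gene, had 1.35. In the SoxC group Sox12 had 15.6 and Sox4 had 3.61, against 0.857 for Sox11. By CPM, Sox2 had 440 ± 15.7 in wild-type and 440 ± 28.1 in knock-in cells, and Sox12 had 67.8 ± 7.81 and 70.8 ± 1.15 (SD, n = 2 each). Of the Zic paralogs, Zic2 had 6.54 and Zic5 had 3.90 CPM per kilobase, whereas Zic1 stood at 0.00957. Zic5 had 19.4 ± 2.39 CPM in the wild-type and 18.7 ± 0.164 in the knock-in pair, and neither Zic2 nor Zic5 was called.

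Notch components had reads in these cells, while Hes5 had a single count. Of 19 genes for ligands, receptors and targets 15 were tested, 5 with positive and 10 with negative differences (median -0.14), and none was called with all libraries. Rbpj, the DNA-binding partner of the Notch intracellular domain, had 403 ± 57.4 CPM in the wild-type and 461 ± 17.6 in the knock-in pair, and the receptor Notch1 had 83.9 ± 12.1 and 65.1 ± 9.95 CPM. The Hes family was led by Hes1 (13.5 CPM per kilobase) and Hes6 (5.82), with Hes2 at 0.372, Hes3 at 0.210, Hes7 at 0.066 and Hes5 at 0.00753. Among 17 proneural and neuronal bHLH genes 10 were tested, 9 of them with a negative difference (median -0.20). Tcf3, the ubiquitous E protein, had 217 ± 42.1 and 208 ± 5.12 CPM, and Id1, an inhibitor of bHLH factors, had 121 ± 29.0 and 119 ± 8.93 CPM. Neurog3 (0.395 CPM per kilobase) and Neurog1 (0.129) were low, as was Neurog2 (0.0204). Of 9 Pax genes 3 could be tested, and all were low: beside Pax6, Pax8 had 4.33 ± 1.14 CPM in the wild-type and 1.88 ± 0.240 in the knock-in pair, and Pax5 had 0.590 ± 0.193 and 0.966 ± 0.147 CPM.

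Tubb3 was a minor part of the beta-tubulin transcripts. Tubb5 had a mean of 770 CPM per kilobase, Tubb4b 549 and Tubb2b 261, against 77.2 for Tubb3. Tubb6 (51.9) and Tubb2a (42.9) were lower, and Tubb4a (0.546) and Tubb1 (0.201) were near the low end. All 7 tested genes of the family had a negative difference (median -0.33) and none was called, where 7578 of all 15191 genes tested were negative. With the GC correction the median was -0.16, and Tubb5 (0.082) and Tubb4b (0.023) turned positive while the rest of the 7 stayed negative. The summed family level was 4066 and 5721 CPM in the 2 wild-type libraries, and 4558 and 4251 CPM in the 2 knock-in libraries, so the knock-in values lay between those of the wild-type libraries. Tubb5 had 2614 ± 566 CPM in the wild-type and 2512 ± 159 in the knock-in pair, and Tubb4b had 1222 ± 321 and 1072 ± 31.8 CPM. Beta-tubulin genes are close in sequence, and reads that fit several copies were not assigned, so the family's levels are uncertain.

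Several other cytoskeletal genes had higher levels than Map2 and Nes. Of 14 genes for microtubule-associated proteins 11 were tested and none was called (median 0.17). Map4, the widely expressed relative of Map2, had 435 ± 18.5 CPM in the wild-type and 411 ± 8.55 in the knock-in pair, and Stmn2, a microtubule regulator of growing axons, had 262 ± 13.6 and 294 ± 23.5 CPM. Per kilobase, Map4 had 28.0, Map1b 9.46 and Mapt, which encodes tau, 5.45 CPM, against 0.182 for Map2. All 9 intermediate filament genes were tested, 7 with a negative difference and none called. Vim (vimentin) had 515 ± 135 and 509 ± 52.3 CPM, and Nefh, a neurofilament subunit, had 43.2 ± 7.13 and 35.5 ± 1.39 CPM. Vim at 108 CPM per kilobase stood above Nes at 3.59.

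The REST repressor, which holds neuronal genes silent outside neurons, was well expressed. All 10 genes of REST and its corepressors were tested, 7 with a positive difference (median 0.033) and none called. Rest had 368 ± 27.4 CPM in the wild-type and 438 ± 11.3 in the knock-in pair (log2 fold change 0.25, SE 0.14, edgeR adjusted p = 0.514). Its groups did not overlap, as for 47.4% of all genes tested. Hdac1, a histone deacetylase of its corepressor complexes, had 422 ± 61.4 and 403 ± 14.0 CPM. Of 10 progenitor and radial glia markers 7 were tested and none was called (median -0.068). The RNA-binding proteins Msi2 and Msi1 led that list, with 56.3 ± 12.4 and 26.7 ± 1.52 CPM in the wild-type pair against 69.9 ± 2.94 and 29.0 ± 2.22 CPM in the knock-in pair. Of 16 neuronal markers 10 were tested and none was called (median -0.16). Ina, a neuronal intermediate filament, had 34.2 ± 4.24 and 44.4 ± 2.10 CPM, and the RNA-binding protein Elavl2 had 19.6 ± 3.03 and 26.9 ± 2.09 CPM.

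Most neural plate and regional transcription factors had few or no reads: 19 of 29 had fewer than 10 counts in every library. Of the 10 tested, 9 had a negative difference (median -0.44) and none was called. Gbx2, a hindbrain factor that also acts downstream of LIF in embryonic stem cells, had 18.3 and 20.8 CPM in the 2 wild-type libraries, and 35.6 and 30.8 CPM in the 2 knock-in libraries. Otx2, a factor of the forebrain and of the primed epiblast, had 21.9 and 17.8 CPM in the wild-type libraries and 13.7 and 15.0 CPM in the knock-in libraries. Neither pair of groups overlapped, which was also so for 47.4% of all genes tested. The log2 fold change was 0.76 (SE 0.18, edgeR adjusted p = 0.201) for Gbx2 and -0.47 (SE 0.19, adjusted p = 0.438) for Otx2.

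The 5 pathway genes called with the GC correction were Gbx2, Stmn3 and Ina (higher) and Notch3 and Meis2 (lower), of which Notch3, Stmn3 and Meis2 were named only after their values were seen. Notch3, a Notch receptor, had 80.6 and 93.4 CPM in the wild-type libraries and 41.6 and 49.0 CPM in the knock-in libraries. Its log2 fold change was -0.94 (edgeR adjusted p = 0.123), and -0.69 with the correction (adjusted p = 0.0115). Meis2, a homeobox cofactor, had 7.74 and 6.86 CPM in the wild-type libraries and 2.92 and 1.98 CPM in the knock-in libraries. Its log2 fold change was -1.56 (edgeR adjusted p = 0.118), and -1.70 with the correction (adjusted p = 0.00438). Corrected for GC content, Gbx2, Stmn3 and Ina had log2 fold changes of 1.02, 0.85 and 0.59 (edgeR adjusted p = 0.00186, 0.0289 and 0.0301). All 5 kept their direction in each of the 15 other settings, in which the edgeR, DESeq2 or limma adjusted p ran from 1.14e-17 to 0.836 for Notch3, from 1.43e-07 to 0.320 for Meis2, from 1.53e-07 to 1.0 for Gbx2, from 0.00327 to 1.0 for Stmn3 and from 0.00652 to 1.0 for Ina. The shared direction is not separate support, because the 5 genes were picked on values of these same libraries. Their groups did not overlap, as for 47.4% of all genes tested, so leaving out a library could hardly turn the sign. For Gbx2 the forward and reverse single-strand columns, without GC correction, gave smaller values than the 0.76 of the unstranded column. They were 0.49 and 0.44 (edgeR adjusted p = 0.486 and 0.461), and why they were smaller was not tested.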

How the data were processed

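RNA was sequenced from 2 wild-type and 2 knock-in libraries made, per the labels, from total RNA with an Illumina TruSeq kit. The authors deposited raw read counts per gene. Trim Galore, STAR 2.5.3a and GRCm38 (mm10) were used, per the submitters' processing notes. Which annotation release the counts used is not given in the sources used here, and 54809 of 54838 identifiers matched GENCODE M21. The 4 summary rows (541505 to 1421333 unmapped reads and 1382004 to 1930597 ambiguous reads, among others) stayed out of all totals. The reverse-strand column held 50.2% to 50.5% of counts, so the unstranded column was used.

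The 15191 genes past filterByExpr (minimum count 10) were fitted on genotype with edgeR 4.0.16 (R 4.3.3; TMM, quasi-likelihood test, Benjamini-Hochberg adjustment over all genes, threshold 0.05). The standard error is the absolute log2 fold change over the square root of F. The GC correction is an offset from a natural spline (5 degrees of freedom) of log2 CPM deviation on longest-transcript GC content. DESeq2 1.42.0 and limma 3.58.1 (voom) were alternatives, and the procedure was tested on simulated counts. These were drawn from the fit's own means and dispersions with no GC trend, so they do not cover the deviation of wild-type 2. A wild-type 1 against wild-type 2 comparison gave a chi-square per gene of 48.8 and the knock-in pair 6.15, so neither pair is a repeated library.

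The members and lists were chosen with earlier results of these data known. Some genes were named outside the rule that follows, such as Map1b, genes without any count and genes called only in an alternative fit. Named by rule were the 9 markers, their overlapping genes and paralogs. From each list the rule took the genes past the threshold or else the 2 with the highest mean CPM. A gene that this rule names is not reported here.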

Additional observations from a re-analysis of the deposited data

How the results depend on the processing

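The number of genes called moved with the processing. Against 10 with all libraries, 354 were called without the low-count filter, 123 with DESeq2's Wald test, 4 with limma-voom and 180 with the GC correction. Leaving out 1 library gave 16 to 5015 calls: 5015 with wild-type 1 left out, 711 with wild-type 2 left out, and 17 and 16 with knock-in 1 and knock-in 2 left out. The cause was not tested. In these fits the spread comes from the remaining pair alone. The count of markers called stayed at 0 in each alternative except without wild-type 1, where it was 2 (a range of 0 to 2 over the libraries left out). Counting a single strand, with fewer reads each, moved 4 markers by more than 1.5 times and turned Sox1 to a log2 fold change of -0.25 (reverse strand) and Map2 to -0.18 (forward strand). Leaving out 1 library also turned the sign of 4 markers, with ranges of -0.035 to 0.30 for Sox1, -0.045 to 0.82 for Pax6, -0.68 to 0.11 for Tubb3 and -0.18 to 1.01 for Map2. At fewer than 6 counts per library for Neurog2, Zic1 and Hes5, depth limits what could be seen. Map2 had 36 to 102 counts per library, and its wild-type libraries differed by more than counting error.

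With the replicate number as a block, 197 of all 15191 genes tested were called, and 403 of them with the block and the GC correction. Of the markers, 0 were called in either fit. Among 94 other neural pathway genes the block gave 0 higher and 3 lower (Notch3, Synm and Meis2), and 4 higher and 5 lower with the GC correction. The labels give no shared culture or day behind a number, and deviations of same-numbered libraries had a correlation of -0.12 across genes. A crossed replicate block, added after the data were seen, called 509 of all 15191 genes tested and 0 markers. Among those 94 pathway genes it gave 1 higher and 7 lower.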
